A study of Homo sapiens with 32 samples.

Results

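Neuregulin 1 (NRG-1) is a ligand of HER3, an ERBB family receptor with little kinase activity of its own that signals by pairing with HER2. The occupied pair activates the RAS-ERK and PI3K-AKT cascades. Transcription factors and feedback inhibitors are known to be switched on early after such a signal, and their products act on a later set of genes. AKT also keeps FOXO transcription factors out of the nucleus, which lowers the transcription of FOXO target genes. The comparison described here concerns the later phase of this response. It set the 4 LNCaP libraries labeled as exposed to NRG-1 for 4 hours against the 4 labeled as having no growth factor, which together are 8 of the 32 LNCaP libraries in the series. LNCaP is an androgen-dependent human prostate cancer line that was derived from a lymph node metastasis. Cells of both groups were propagated in medium with fetal bovine serum and were moved, the day after plating, to medium with charcoal-stripped serum (CSS), which lacks most steroid hormones. The controls therefore carried the hormone withdrawal as well, and the groups differed in the addition of 100 ng/mL NRG-1. Each group held 2 libraries from each of 2 batches, which the labels number as biological replicates. The labels do not say what a batch shared or whether replicates came from separate cultures, so that *P* values measure the spread between these libraries. Later comparisons used libraries of the series with NRG-1 for 5 minutes or 1 hour and with EGF for 4 hours. Their labels give CSS medium and the same dose of 100 ng/mL.

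The libraries were made from polyadenylated RNA by a strand-specific protocol. Expected counts summed to between 66903121 and 87130351 per CSS library and between 65936153 and 77598674 per NRG-1 library. Levels are given as CPM, which are counts scaled to a common library size, in the order batch 1 replicates 1 and 2, then batch 2 replicates 1 and 2. Of 25498 genes in the table, 16995 had at least 5 counts in at least 3 of the 32 libraries and were tested. All 10 markers of LNCaP and luminal prostate cells were tested, and their summed level per library lay between 3485 and 3981 TPM (transcripts scaled for length and to a common total) in CSS and between 3450 and 4699 TPM with NRG-1. Summed markers of fibroblasts reached 5.01 TPM and those of endothelial cells 2.55 TPM in any of the 8 libraries, and those of leukocytes and basal cells reached 0.27 TPM each. One NRG-1 library, batch 2 replicate 2, stood apart. Over 7966 genes above 20 CPM, the SD of its log2 deviations from its group was 0.348, against 0.132 to 0.214 in the other 3 NRG-1 libraries and 0.122 to 0.200 in CSS. Its deviations moved with transcript length, with a median of 0.22 among the 25% of genes with the shortest transcripts and -0.26 among the 25% with the longest. Where a count of list members moved by over 1.5 times without it or without another library, both counts are given.

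At 4 hours, 4.87% of the tested genes were differentially expressed and higher than in CSS and 2.54% were differentially expressed and lower, where a DEG is a gene with at least a doubling or halving and an adjusted *P* value below 0.05 in edgeR. Without regard to size, 21.6% of the tested genes passed the test as higher and 21.0% as lower. In both directions most changes were small. The median absolute log2 fold change was 0.46 among the 3675 higher genes and 0.43 among the 3570 lower genes. The larger changes lay on the rising side, where 393 genes exceeded a log2 fold change of 2 and 215 exceeded 3, against 69 and 15 genes on the falling side. The DEGs were also found mostly at low levels. Of the higher DEGs, 457 had an average log2 CPM below 0 and 47 had one of 6 or more, and of the lower DEGs the numbers were 265 and 15 (of 4213 and 3821 genes tested in these ranges). Without NRG-1 batch 2 replicate 2, 852 genes were higher DEGs and 433 lower DEGs. In 16.0% of the tested genes the 4 NRG-1 libraries all lay above the 4 CSS libraries, and in 14.7% they all lay below them. In batch 2 alone, with 2 libraries a group, 24 of the 176 genes named here and tested there no longer passed. In one batch or the other alone, 7 named genes had the opposite sign, none of which passed the test in both batches together or in that batch.

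**Figure D1:**
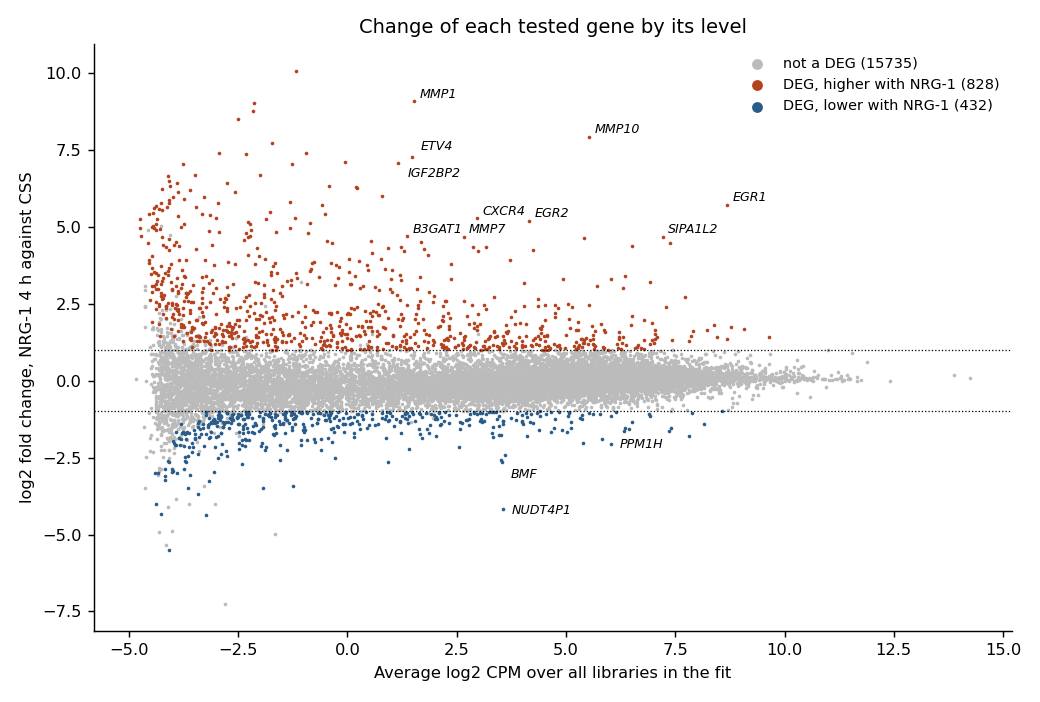
Log2 fold change of each of the 16995 tested genes at 4 hours of NRG-1 against its average log2 CPM, with the 828 higher DEGs in red, the 432 lower DEGs in blue, and dotted lines at log2 fold changes of 1 and -1. The rises extend further than the falls and both spread more widely at low levels.

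The largest rises were ranked among DEGs without overlap of the groups, so that their separation was a condition of the choice. The naming rule also asked for a mean level of at least 1 on the log2 CPM scale, taken over all 32 libraries. Genes near 0 in CSS, such as *ETV4* and *IGF2BP2*, could meet this through their levels with a ligand. The rises named in this way included matrix proteases, transcription factors, an RNA-binding protein, a chemokine receptor, and a regulator of small GTPases. *SIPA1L2*, a member of a family of RAP GTPase-activating proteins, was at 19.6, 21.4, 17.6, and 15.1 CPM in CSS and 633, 529.8, 431, and 307 CPM with NRG-1. Its lowest NRG-1 library lay above its highest CSS library by more than an order of magnitude (log2 fold change 4.67, SE 0.15, adjusted *P* = 1.09e-19). *IGF2BP2*, which binds and stabilizes messenger RNAs, was at 0.0484, 0.0430, 0.0553, and 0.0486 CPM in CSS and 10.0, 8.29, 5.48, and 4.50 CPM with NRG-1 (log2 fold change 7.08, SE 0.20, adjusted *P* = 4.21e-21). The NRG-1 libraries of batch 1 lay above those of batch 2 for this gene, and all of them lay far above CSS. *B3GAT1* encodes the glucuronyltransferase that builds the HNK-1 carbohydrate epitope. Its level was 0.327, 0.329, 0.398, and 0.364 CPM in CSS and 13.9, 12.5, 6.90, and 5.65 CPM with NRG-1 (log2 fold change 4.69, SE 0.18, adjusted *P* = 4.80e-18), with the same order of the batches. *CXCR4*, the receptor for the chemokine CXCL12, was at 0.472, 0.358, 0.387, and 0.401 CPM in CSS and 17.6, 19.7, 11.4, and 14.9 CPM with NRG-1 (log2 fold change 5.28, SE 0.18, adjusted *P* = 4.80e-19). *ETV4*, an ETS factor of the PEA3 group, was at 0.0363, 0.0859, 0.111, and 0.0486 CPM in CSS and 10.7, 10.5, 11.8, and 11.0 CPM with NRG-1, and its NRG-1 libraries differed little from each other. Also among the 10 largest rises by the naming rule were *MMP1*, *MMP10*, *MMP7*, *EGR1*, and *EGR2*.

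Matrix metalloproteinases (MMPs) cleave collagens and other matrix proteins, and TIMPs inhibit them. Several MMP genes lie next to each other on chromosome 11. The 250 bases before the RefSeq start of *MMP10* (stromelysin-2) and *MMP7* (matrilysin) are shown because both genes are among the largest rises and their windows hold an AP-1 motif at the same distance from the start. Both are on the minus strand of GRCh38.p14, at chr11:102780629-102780878 and chr11:102530748-102530997, and capitals mark the motif TGANTCA, which lay 67 to 61 bases before the start in each.
MMP10: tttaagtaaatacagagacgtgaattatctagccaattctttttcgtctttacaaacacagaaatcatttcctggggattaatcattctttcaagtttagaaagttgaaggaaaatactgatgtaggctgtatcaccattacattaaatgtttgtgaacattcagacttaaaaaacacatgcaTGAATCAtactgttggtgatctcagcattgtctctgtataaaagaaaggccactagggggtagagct
MMP7: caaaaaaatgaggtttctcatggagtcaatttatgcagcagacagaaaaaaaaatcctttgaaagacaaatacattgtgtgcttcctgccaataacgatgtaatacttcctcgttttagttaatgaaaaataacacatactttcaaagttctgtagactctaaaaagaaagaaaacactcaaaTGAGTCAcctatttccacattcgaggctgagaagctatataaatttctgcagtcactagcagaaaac
TGANTCA was held by 9.26% of the promoter windows of higher DEGs (864 windows of 554 genes), by 5.66% of those of lower DEGs (442 windows of 264 genes), and by 4.89% of all 17244 windows of tested genes, where both strands were searched. The motif GCGGGGGCG of EGR factors was found in 11.7%, 4.52%, and 6.96% of these windows. CCGGAAGT, read by ETS factors, was found in 1.04%, 0.905%, and 5.21%, and TGACGTCA, read by CREB factors, in 1.16%, 0.679%, and 2.16%. No motif in this search contains another. The windows of higher DEGs had a median GC content of 65.2%, against 58.8% for lower DEGs and 63.6% for all windows, and its part in these shares was not tested. A match is a stretch of letters and does not show binding.

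Of 20 MMP and TIMP genes, 16 were tested, and 8 rose and 2 fell (1 without NRG-1 batch 2 replicate 2), with a median log2 fold change of 0.84 beside -0.01 over all tested genes. *MMP10* was at 0.363, 0.344, 0.409, and 0.449 CPM in CSS and 118, 116, 65.4, and 90.5 CPM with NRG-1 (log2 fold change 7.93, SE 0.31, adjusted *P* = 3.63e-18). No CSS library reached 1 CPM and no NRG-1 library was below 65 CPM. *MMP7* was at 0.508, 0.687, 0.918, and 0.899 CPM in CSS and 18.7, 19.9, 15.3, and 22.3 CPM with NRG-1 (log2 fold change 4.67, SE 0.18, adjusted *P* = 3.14e-18). *MMP13*, collagenase-3, was at 0.569, 0.673, 0.841, and 0.875 CPM in CSS and 6.50, 6.24, 4.67, and 5.45 CPM with NRG-1 (log2 fold change 2.96, SE 0.27, adjusted *P* = 4.89e-10). *MMP1*, interstitial collagenase, had 2 counts in the CSS libraries together, and the ratio of the groups was 690 (95% Poisson interval 191 to 5697, counting error only). *TIMP1*, an inhibitor of these enzymes, had 3 counts in CSS together and a ratio of 155 (52.9 to 750). An inhibitor thus rose beside the proteases. In the urokinase and ADAMTS list 7 of 13 tested genes rose and 0 fell. The urokinase gene *PLAU* had 2 counts in CSS together (ratio 14.7, 4.06 to 121) and *ADAMTS9* 6 counts (7.63, 3.51 to 20.8). Both genes stayed below 0.2 CPM with NRG-1. The urokinase receptor gene *PLAUR* did not pass the test (log2 fold change -0.53, SE 0.35, adjusted *P* = 0.246).

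Integrins are the receptors by which cells hold the matrix, and laminins are matrix proteins of the basement membrane. Of 21 tested genes for integrins and laminin chains, 12 rose and 1 fell at 4 hours (2 with the replicate number as a block, median log2 fold change 0.46), whereas at 1 hour of NRG-1 0 rose and 0 fell in edgeR against the same CSS libraries. At an unadjusted *P* value below 0.05, 2 of them were higher and 1 lower at 1 hour. *ITGA2*, the alpha chain of a collagen receptor, was at 13.9, 15.3, 12.1, and 12.4 CPM in CSS and 91.4, 85.3, 64.9, and 64.4 CPM with NRG-1 (log2 fold change 2.50, SE 0.11, adjusted *P* = 3.63e-17). Its groups did not overlap, and the 2 batches were separated within each. *ITGB6*, an integrin chain of epithelial cells, was at 0.133, 0.0859, 0.0553, and 0.121 CPM in CSS and 1.11, 1.10, 1.19, and 1.55 CPM with NRG-1 (log2 fold change 3.63, SE 0.31, adjusted *P* = 1.17e-10). *LAMB3*, a laminin beta chain, was at 0.835, 0.673, 1.08, and 0.789 CPM in CSS and 6.66, 5.24, 5.27, and 3.55 CPM with NRG-1 (log2 fold change 2.61, SE 0.21, adjusted *P* = 2.38e-11). *LAMA3*, a laminin alpha chain, had a log2 fold change of -0.15 (adjusted *P* = 0.430) and was chosen after its values were seen. In batch 2 alone, with 2 libraries a group, 6 genes of the list rose, where 1511 of all tested genes did (against 3675 with both batches).

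**Figure D2:**
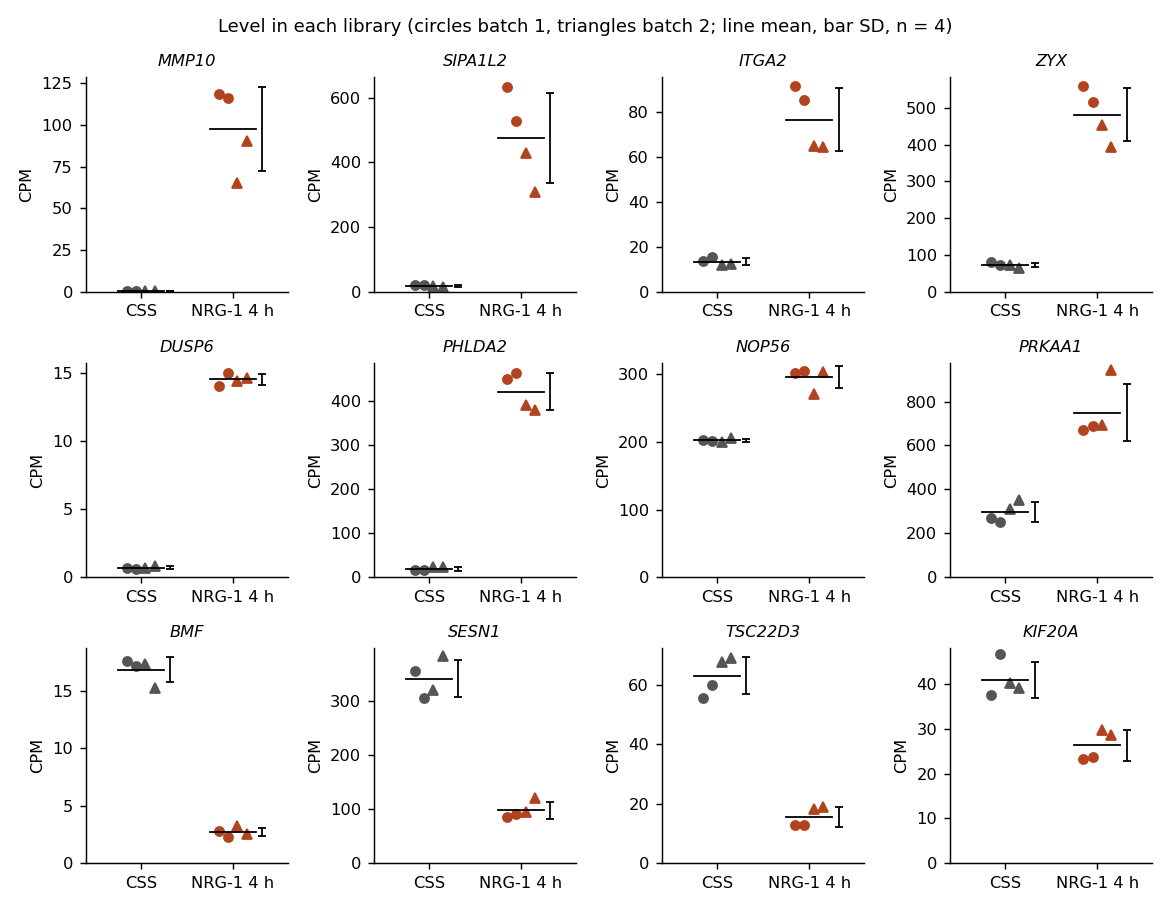
CPM of 12 genes in each of the 4 CSS and 4 NRG-1 libraries, with circles for batch 1, triangles for batch 2, a line at the mean, and a bar for the SD. The 2 groups do not overlap for any of the 12 genes, and the last 4 genes are lower with NRG-1.

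Genes for secreted growth factors moved unequally. Of 21 tested angiogenic and TGF-beta family factors, 8 rose and 1 fell (3 with the replicate block, 2 without NRG-1 batch 1 replicate 1; median log2 fold change 0.18). *TGFB1*, the gene for TGF-beta 1, was at 0.0968, 0.0573, 0.111, and 0.134 CPM in CSS and 8.18, 6.59, 6.12, and 5.39 CPM with NRG-1 (log2 fold change 5.98, SE 0.22, adjusted *P* = 9.09e-19). *BMP7* rose from 0.148 ± 0.0517 to 2.11 ± 0.174 CPM (log2 fold change 3.84) and *PDGFC* from 0.127 ± 0.0672 to 0.953 ± 0.153 CPM (log2 fold change 2.83), while *BMP4* fell from 0.175 ± 0.0425 to 0.0648 ± 0.0133 CPM (log2 fold change -1.40). *VEGFA*, a growth factor of blood vessels, and *GDF15*, a stress-induced cytokine, did not pass at 4 hours, with log2 fold changes of -0.05 and -0.03. Ephrins and their Eph receptors signal between neighboring cells. Of their 19 tested genes 5 rose and 5 fell (26.3% each, near the shares of all genes). *EPHB6* rose from 0.539 ± 0.360 to 4.10 ± 1.41 CPM and *EPHA1* from 15.6 ± 1.47 to 42.7 ± 7.30 CPM (log2 fold changes 2.96 and 1.45), and *EPHA2* rose by less (0.66). The ligand gene *EFNA1* did not pass (0.03).

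The actin cytoskeleton and its attachment to integrins are controlled by the transcription factor SRF and by the coactivator YAP. Of 24 tested targets of these, 13 rose and 3 fell (median log2 fold change 0.52, beside 0.41 at 1 hour). The number that fell was 1 without CSS batch 2 replicate 1, NRG-1 batch 1 replicate 2, or NRG-1 batch 2 replicate 2. *ZYX* encodes zyxin, a protein of focal adhesions, and was at 79.6, 74.1, 72.4, and 65.6 CPM in CSS and 559, 517, 454, and 395 CPM with NRG-1 (log2 fold change 2.72, SE 0.07, adjusted *P* = 3.59e-21). *VCL*, which encodes vinculin of the same structures, was at 177, 184, 169.7, and 163 CPM in CSS and 627, 578, 532, and 435 CPM with NRG-1 (log2 fold change 1.64, SE 0.12, adjusted *P* = 6.01e-12). Neither gene had overlapping groups. *FHL2*, a LIM domain protein that moves between adhesions and the nucleus, was at 0.157, 0.158, 0.210, and 0.279 CPM in CSS and 1.04, 1.10, 2.31, and 3.00 CPM with NRG-1 (log2 fold change 3.15, SE 0.28, adjusted *P* = 2.72e-10), with batch 2 above batch 1 under NRG-1. *CNN1*, calponin of smooth muscle, was not counted in CSS, and its NRG-1 level was at least 2.52-fold higher against a floor of 3 counts per library. *CYR61*, a widely used YAP target, did not pass at 4 hours (log2 fold change 0.10, SE 0.13, adjusted *P* = 0.568), and at 1 hour its log2 fold change against CSS was 3.15. The start of *ZYX* is shown because its window holds the EGR motif GCGGGGGCG, in capitals, 247 to 239 bases before the RefSeq start, on the plus strand at chr7:143381095-143381344 of GRCh38.p14.
ZYX: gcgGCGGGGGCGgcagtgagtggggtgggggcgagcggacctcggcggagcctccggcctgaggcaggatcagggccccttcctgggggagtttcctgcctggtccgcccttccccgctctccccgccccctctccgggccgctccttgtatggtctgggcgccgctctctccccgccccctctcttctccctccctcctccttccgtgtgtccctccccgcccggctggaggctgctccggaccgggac

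Genes for phosphatases that act on the ERK cascade were mostly higher. Dual-specificity phosphatases (DUSPs) dephosphorylate MAP kinases, and of 10 tested genes 7 rose and 2 fell (median log2 fold change 0.81). The number that fell was 1 when any library other than CSS batch 2 replicate 2 or NRG-1 batch 2 replicate 1 was left out. *DUSP6*, a cytosolic phosphatase of ERK, was at 0.702, 0.630, 0.675, and 0.862 CPM in CSS and 14.0, 15.0, 14.4, and 14.7 CPM with NRG-1 (log2 fold change 4.33, SE 0.14, adjusted *P* = 1.09e-19). These NRG-1 libraries lay within 1 CPM of each other. *DUSP5*, its nuclear counterpart, was at 2.32, 2.09, 2.00, and 2.30 CPM in CSS and 8.53, 8.70, 7.39, and 6.92 CPM with NRG-1 (log2 fold change 1.85, SE 0.09, adjusted *P* = 4.04e-16). *DUSP9* rose from 1.30 ± 0.132 to 5.34 ± 1.19 CPM (log2 fold change 2.04) and *DUSP4* from 11.6 ± 3.21 to 25.7 ± 6.32 CPM (1.15). Sprouty and SPRED proteins inhibit signaling between the receptor and RAF, and their list with other receptor feedback inhibitors divided evenly, with 5 of 11 genes higher and 5 lower. *SPRY4* was at 0.206, 0.172, 0.376, and 0.255 CPM in CSS and 2.98, 3.19, 3.63, and 2.77 CPM with NRG-1 (log2 fold change 3.61, SE 0.21, adjusted *P* = 2.38e-14). *SPRED1* rose from 12.6 ± 2.23 to 43.6 ± 10.9 CPM (1.78) and *SPRED2* from 21.7 ± 2.58 to 51.3 ± 7.24 CPM (1.24). The lower genes included members of the Sprouty and SPRED families and the LRIG genes. Of the latter, *LRIG3* and *LRIG1*, chosen after their values were seen, were at -0.78 and -0.47. The product of *LRIG1* restrains ERBB receptors.

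Genes of the ERBB receptor family moved in opposite directions, and those of the receptors that bind NRG-1 were lower. All 4 ERBB genes passed the test, 2 as higher and 2 as lower. *EGFR* was at 33.2, 36.6, 27.7, and 24.4 CPM in CSS and 90.1, 73.4, 71.4, and 51.9 CPM with NRG-1, without overlap. *ERBB2*, the gene for HER2, was at 276, 287, 249, and 219 CPM in CSS and 477, 422, 387, and 287 CPM with NRG-1. For *ERBB2* the lowest NRG-1 library, batch 2 replicate 2, lay level with the highest CSS library, and the other 3 lay above it. *ERBB3*, the gene for HER3, which binds NRG-1, was at 196, 216, 239.7, and 221 CPM in CSS and 166, 162, 192, and 139 CPM with NRG-1, with every NRG-1 library below every CSS library. *ERBB4*, the gene for the other NRG-1 receptor, was below 0.2 CPM in every library and was a lower DEG (log2 fold change -2.13, SE 0.55, adjusted *P* = 0.00237) with overlapping groups. Of 8 tested genes for EGF family ligands 2 rose and 1 fell (25% and 12.5%, beside 21.6% and 21.0% of all tested genes). *HBEGF*, a ligand of EGFR, was at 6.58, 6.40, 5.20, and 5.41 CPM in CSS and 21.7, 21.9, 18.3, and 15.9 CPM with NRG-1 (log2 fold change 1.72, SE 0.08, adjusted *P* = 1.92e-16), and *AREG*, another one, rose from 0.265 ± 0.106 to 0.685 ± 0.222 CPM (log2 fold change 1.38, SE 0.28, adjusted *P* = 2.19e-04) with overlapping groups. *TGFA* did not pass (0.11).

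**Figure D3:**
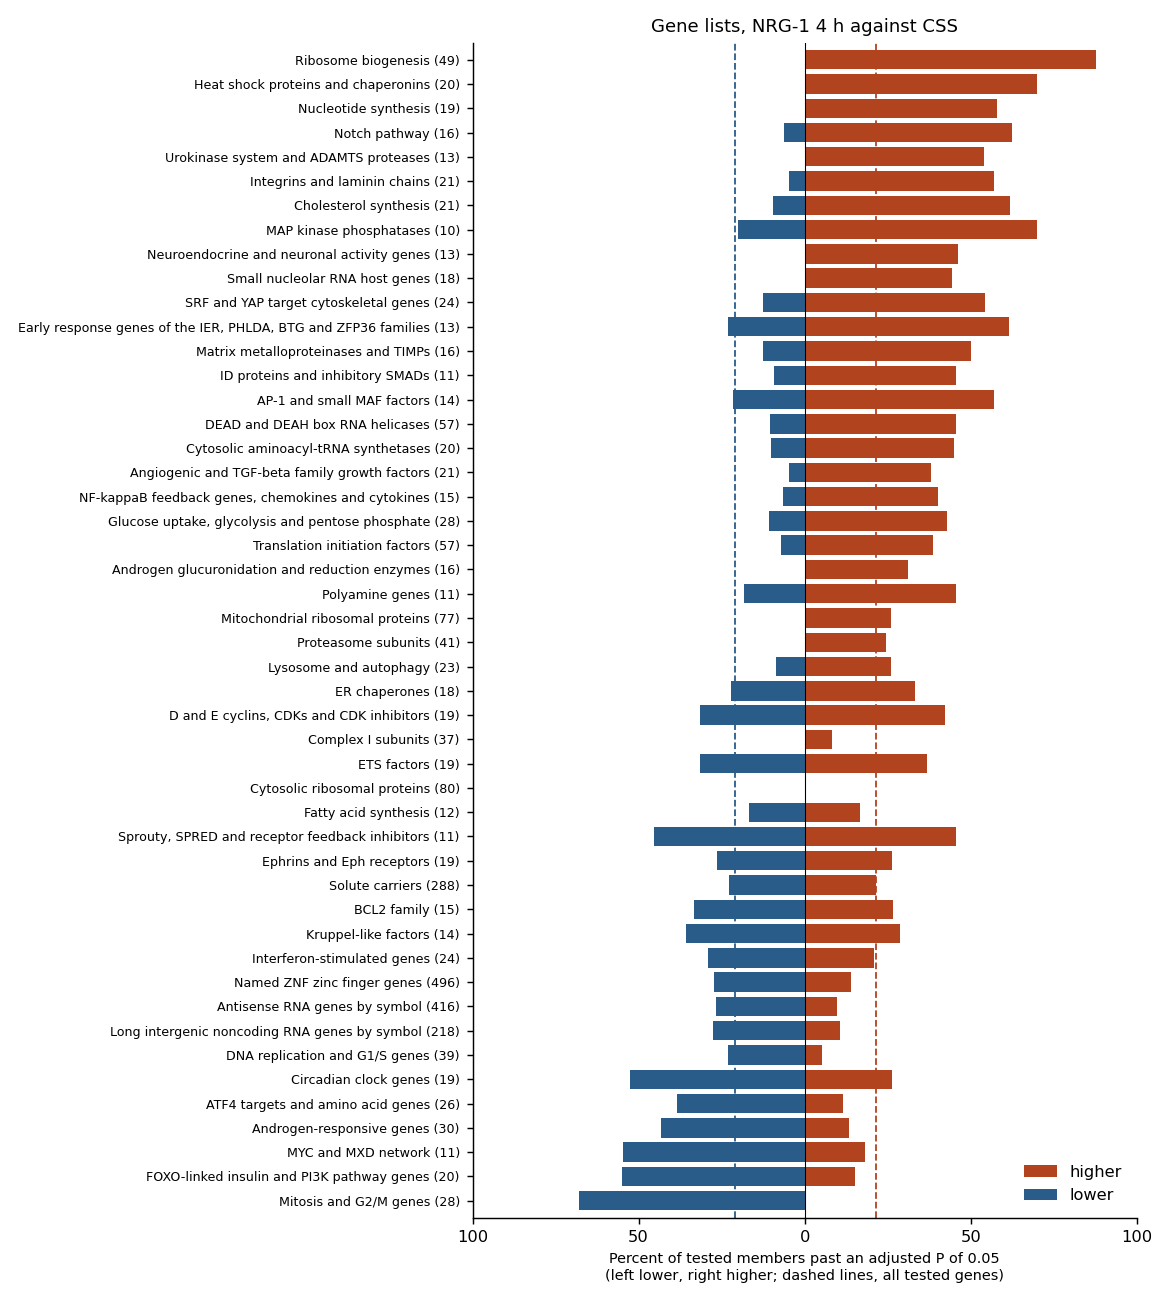
Percent of the tested members of each list with 10 or more tested genes (number tested in parentheses) that passed an adjusted *P* value of 0.05 as higher (red, right) or lower (blue, left) at 4 hours of NRG-1 against CSS, with dashed lines at the 21.6% and 21.0% of all tested genes. Of the lists shown, ribosome biogenesis reaches furthest to the right (43 of 49 genes) and the mitosis list furthest to the left (19 of 28 genes).

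Among transcription factors, the PEA3 group, the EGR factors, and several AP-1 partners were above CSS at 4 hours. Of 19 tested ETS genes 7 rose and 6 fell (median 0.15). *ETV5*, a PEA3 relative of *ETV4*, was at 1.27, 1.13, 0.653, and 0.741 CPM in CSS and 6.65, 6.48, 5.86, and 6.28 CPM with NRG-1 (log2 fold change 2.77, SE 0.17, adjusted *P* = 5.63e-14), and *ELF4* rose from 4.55 ± 0.599 to 15.8 ± 3.08 CPM (1.78). AP-1 is formed by FOS, JUN, and ATF family proteins, and with small MAF factors 8 of 14 genes rose and 3 fell (median 0.90). *FOS* was at 0.665, 0.587, 0.531, and 0.692 CPM in CSS and 8.59, 10.3, 23.1, and 21.5 CPM with NRG-1 (log2 fold change 4.64, SE 0.35, adjusted *P* = 6.91e-12), with the 2 batches apart under NRG-1. *FOSL1* rose from 0.0866 ± 0.0114 to 0.709 ± 0.0923 CPM (3.02) and *BATF3* from 0.247 ± 0.0537 to 1.33 ± 0.107 CPM (2.44). All 6 genes of the EGR factors and of their NAB corepressors passed as higher. The rise of *EGR4* was the least certain, at 0.872 times a floor of 3 counts per library with NRG-1. It did not pass in either batch alone, in limma, or without the batch term. *NAB2*, which represses EGR activity, was at 5.52, 5.83, 6.87, and 5.33 CPM in CSS and 37.2, 38.2, 31.0, and 23.3 CPM with NRG-1 (log2 fold change 2.47, SE 0.17, adjusted *P* = 1.45e-12), and *EGR3* rose from 0.126 ± 0.0580 to 2.61 ± 0.479 CPM (4.38). The median of this list was 4.37 as fitted and 3.43 when *EGR4*, with 0 counts in CSS, was set to its bound.

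Families of repressors and growth regulators held genes that rose and genes that fell. *MYC*, a driver of cell growth, was at 254, 264, 256, and 256 CPM in CSS and 391, 382, 406, and 394 CPM with NRG-1 (log2 fold change 0.61, SE 0.05, adjusted *P* = 1.04e-10), with every NRG-1 library above every CSS library. In the whole MYC and MXD network 2 of 11 genes rose and 6 fell (median -0.22). *MXD3* and *MXD4*, which compete with MYC for its partner MAX, fell by 0.61 and 0.51 on the log2 scale. Of 14 Kruppel-like factors 4 rose and 5 fell (28.6% and 35.7%, beside 21.6% and 21.0% of all tested genes). *KLF15* was at 9.64, 9.25, 13.5, and 11.5 CPM in CSS and 3.23, 3.23, 4.86, and 4.06 CPM with NRG-1 (log2 fold change -1.52, SE 0.12, adjusted *P* = 1.93e-11) and *KLF8* fell from 1.82 ± 0.162 to 0.680 ± 0.171 CPM (-1.43), as did *KLF9* (-0.70), while *KLF5* rose (0.70). ID proteins block basic helix-loop-helix factors. *ID1* was at 7.92, 4.47, 14.1, and 12.4 CPM in CSS and 23.2, 28.9, 33.1, and 34.5 CPM with NRG-1 (log2 fold change 1.69, SE 0.19, adjusted *P* = 2.41e-08), *ID2* rose from 9.74 ± 2.22 to 25.2 ± 2.86 CPM (1.38), and *ID4* from 0.147 ± 0.0711 to 0.457 ± 0.119 CPM (1.62), and in the list of ID proteins and inhibitory SMADs 5 of 11 genes rose and 1 fell. In the list of IER, PHLDA, BTG, and ZFP36 early response genes 8 of 13 rose and 3 fell. *PHLDA2*, an imprinted growth regulator, was at 16.1, 15.6, 24.6, and 22.6 CPM in CSS and 451, 465, 391, and 379 CPM with NRG-1 (log2 fold change 4.46, SE 0.16, adjusted *P* = 7.36e-19), while *IER3* did not pass (0.17).

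Clock and Notch genes were further groups with many changes. Of 19 circadian clock genes 5 rose and 10 fell (26.3% and 52.6%, beside 21.6% and 21.0% of all tested genes; median -0.18). At 1 hour 4 clock genes were higher and 0 lower. *NPAS2* and *ARNTL* encode partners of the clock's activating pair and moved apart. *NPAS2* was at 4.57, 4.40, 3.73, and 3.39 CPM in CSS and 16.2, 16.1, 13.8, and 11.1 CPM with NRG-1 (log2 fold change 1.83, SE 0.10, adjusted *P* = 1.37e-14). *ARNTL* was at 9.47, 8.65, 10.0, and 10.4 CPM in CSS and 2.96, 3.79, 4.03, and 4.82 CPM with NRG-1 (log2 fold change -1.31, SE 0.09, adjusted *P* = 2.82e-12). Neither had overlapping groups. The repressor gene *BHLHE41* rose from 1.03 ± 0.242 to 3.15 ± 0.640 CPM (1.61) and its relative *BHLHE40* by 0.68 on the log2 scale. Notch receptors and ligands signal between adjacent cells. Of 16 tested genes of the pathway 10 rose and 1 fell (2 with the replicate block; median 0.45). The number that fell was 0 when any library other than CSS batch 2 replicate 1 or NRG-1 batch 2 replicate 1 was left out. *HES1*, a repressor that Notch induces, was at 0.907, 0.917, 1.22, and 1.08 CPM in CSS and 5.08, 5.75, 6.25, and 5.21 CPM with NRG-1 (log2 fold change 2.43, SE 0.12, adjusted *P* = 9.82e-16). *LFNG*, which glycosylates Notch, rose from 0.697 ± 0.105 to 2.68 ± 0.192 CPM (1.93) and the ligand gene *DLL4* from 0.0841 ± 0.0480 to 0.254 ± 0.0644 CPM (1.55). Among 15 tested genes for NF-kappaB feedback, chemokines, and cytokines 6 rose and 1 fell. Without NRG-1 batch 1 replicate 1 the number that rose was 3, and without any one of the batch 1 libraries the number that fell was 0. *RELB*, an NF-kappaB subunit, was at 1.32, 1.19, 1.10, and 1.19 CPM in CSS and 5.47, 5.16, 4.34, and 3.80 CPM with NRG-1 (log2 fold change 1.97, SE 0.15, adjusted *P* = 1.23e-11). *CXCL8*, the gene for a neutrophil chemokine, had 7 counts in CSS together and a ratio of 4.70 (2.28 to 11.7), and it did not pass without that NRG-1 library (adjusted *P* = 0.0550) or without CSS batch 1 replicate 2 (0.0520). *LIF* had a log2 fold change of 0.39 (adjusted *P* = 0.0174), which was 0.0769 and 0.0852 without NRG-1 batch 1 replicate 1 or batch 2 replicate 1.

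Most genes that build ribosomes rose, each by less than a doubling. Of 49 genes for ribosome biogenesis and RNA polymerase I, 43 rose and 0 fell, with a median log2 fold change of 0.45. *NOP56*, a core protein of box C/D small nucleolar particles, was at 203, 202, 200.2, and 205 CPM in CSS and 301, 305, 271, and 303 CPM with NRG-1 (log2 fold change 0.54, SE 0.06, adjusted *P* = 3.37e-09). *POLR1B*, a subunit of RNA polymerase I, was at 59.8, 57.2, 60.0, and 58.1 CPM in CSS and 94.4, 87.3, 80.7, and 77.9 CPM with NRG-1 (log2 fold change 0.53, SE 0.06, adjusted *P* = 1.11e-08). *RRP12*, which acts in the export of ribosomal subunits, was at 53.2, 55.3, 52.7, and 44.5 CPM in CSS and 108, 95.8, 89.6, and 64.4 CPM with NRG-1 (log2 fold change 0.79, SE 0.11, adjusted *P* = 1.04e-06). None of these 3 genes had overlapping groups. In batch 2 alone 22 of the 49 rose, with 0 lower, and without NRG-1 batch 2 replicate 2 it was 42. Genes for the proteins of the cytosolic ribosome itself did not pass the test. In edgeR 0 of 80 rose and 0 fell (0 were higher and 0 lower at an unadjusted *P* value below 0.05, and 0 were higher and 0 lower in DESeq2, with 1 higher under the replicate block), and their median log2 fold change was 0.07 (-0.01 without NRG-1 batch 2 replicate 2). Of 77 mitochondrial ribosomal protein genes 20 rose and 0 fell, a share of 26.0% that is near that of all genes. The number was 11 to 13 without CSS batch 1 replicate 2, CSS batch 2 replicate 1, NRG-1 batch 1 replicate 2, or NRG-1 batch 2 replicate 2, and 31 with the replicate block. DEAD and DEAH box RNA helicases, many of which act on ribosomal RNA, held 26 higher and 6 lower genes of 57, led by *DDX10* (0.65) and *DHX34* (0.65). Among small nucleolar RNA host genes 8 of 18 rose and 0 fell (5 without NRG-1 batch 2 replicate 2).

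**Figure D4:**
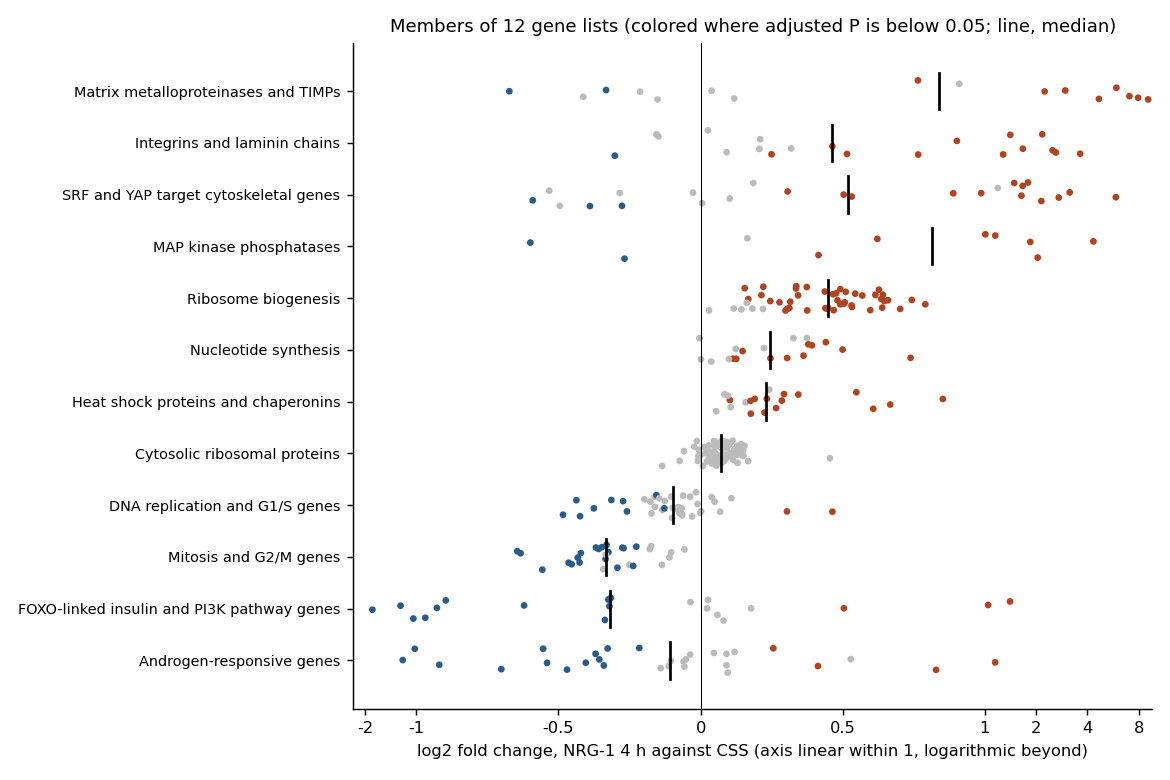
Log2 fold change at 4 hours of NRG-1 against CSS of each tested member of 12 gene lists, with genes past an adjusted *P* value of 0.05 in red or blue and a line at the median. The axis is linear between -1 and 1 and logarithmic beyond. Ribosome biogenesis genes form a narrow group around 0.45, cytosolic ribosomal proteins lie around 0.07, and mitosis genes around -0.33, whereas the matrix metalloproteinase, integrin, and cytoskeletal lists spread widely.

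Members of other growth-related lists rose by small amounts. Of 57 translation initiation factor genes 22 rose and 4 fell, of 20 cytosolic aminoacyl-tRNA synthetase genes 9 rose and 2 fell (1 without NRG-1 batch 2 replicate 2), and of 41 proteasome subunit genes 10 rose and 0 fell (24.4%, near the share of all genes, with 6 genes without NRG-1 batch 1 replicate 2 and 19 with the replicate block). *DARS*, the aspartyl-tRNA synthetase, was at 123, 124, 122, and 127 CPM in CSS and 172, 178, 161, and 182 CPM with NRG-1 (log2 fold change 0.48, SE 0.06, adjusted *P* = 8.06e-08). Nucleotide synthesis had 11 of 19 genes higher and 0 lower (median 0.25). *CTPS1*, which makes CTP, was at 56.4, 54.7, 57.4, and 57.3 CPM in CSS and 90.1, 92.0, 96.2, and 98.6 CPM with NRG-1 (log2 fold change 0.74, SE 0.04, adjusted *P* = 1.38e-14). *PPAT*, the committed enzyme of purine synthesis, had a log2 fold change of 0.30 (adjusted *P* = 1.08e-04). Of 20 heat shock proteins and chaperonins 14 rose and 0 fell (median 0.23, and 3 in batch 2 alone). *HSPB1*, a small heat shock protein, was at 311, 316, 347, and 347 CPM in CSS and 543, 567, 621, and 656 CPM with NRG-1 (log2 fold change 0.85, SE 0.06, adjusted *P* = 2.83e-12). *HSPH1*, a cochaperone of HSP70, rose from 183 ± 10.9 to 292 ± 31.0 CPM (0.67), and mitochondrial *HSPD1* did not pass (0.11, adjusted *P* = 0.163, or 0.0245 with the replicate block). Complex I did not share in this. Of 37 subunits 3 rose and 0 fell (8.11% higher, below the 21.6% of all tested genes). The number that rose was 1 without CSS batch 1 replicate 1, NRG-1 batch 1 replicate 1, or NRG-1 batch 1 replicate 2.

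Some genes of sterol and sugar metabolism rose. Of 21 tested cholesterol synthesis genes 13 rose and 2 fell (median 0.29). *STARD4*, a sterol carrier, was at 10.2, 8.74, 12.0, and 15.0 CPM in CSS and 20.6, 22.8, 28.3, and 42.0 CPM with NRG-1 (log2 fold change 1.29, SE 0.15, adjusted *P* = 2.41e-08). *DHCR7*, which makes cholesterol from its last precursor, was at 96.6, 91.5, 102, and 93.3 CPM in CSS and 189, 175, 165, and 149 CPM with NRG-1 (log2 fold change 0.82, SE 0.10, adjusted *P* = 1.06e-07). *HMGCS1*, an early enzyme of the same pathway, rose by 0.41 on the log2 scale. Fatty acid synthesis had 2 of 12 genes higher and 2 lower (16.7% each, beside 21.6% and 21.0% of all tested genes). Both numbers were 1 without NRG-1 batch 2 replicate 2, and the number higher was also 1 without CSS batch 1 replicate 1 or 2, CSS batch 2 replicate 1, or NRG-1 batch 1 replicate 2. In this list *ME1*, malic enzyme, was at a log2 fold change of 1.00, *ACACA*, the enzyme that makes malonyl-CoA, at -0.40 (adjusted *P* = 0.0145, or 0.0662 without NRG-1 batch 2 replicate 2), and *FASN* at 0.10 (adjusted *P* = 0.647). For glucose uptake, glycolysis, and the pentose phosphate pathway 12 of 28 genes rose and 3 fell (median 0.16). *ENO2*, an enolase, was at 40.0, 39.7, 29.9, and 26.8 CPM in CSS and 80.5, 75.9, 55.5, and 46.5 CPM with NRG-1 (log2 fold change 0.91, SE 0.07, adjusted *P* = 1.88e-11). *PFKP* rose from 58.6 ± 3.16 to 109 ± 11.8 CPM (0.90), and *PFKFB3*, which makes the activator of phosphofructokinase, rose by 0.89. *HK2* had a log2 fold change of 0.23 (adjusted *P* = 0.0915, 0.0109 without NRG-1 batch 2 replicate 2, and 0.00496 with the replicate block). Of 11 polyamine genes 5 rose and 2 fell, among them *AMD1*, which feeds spermidine synthesis, from 919 ± 129 to 1450.3 ± 292 CPM (0.66). *ODC1*, ornithine decarboxylase, rose by 0.33.

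The ATF4 stress-response list leaned the other way. ATF4 drives genes for amino acid supply under stress, and of 26 of its targets and related genes 3 rose (5 with the replicate block) and 10 fell (median -0.15). *CHAC1*, which degrades glutathione, was at 26.5, 26.3, 33.5, and 32.2 CPM in CSS and 10.3, 10.1, 18.1, and 19.4 CPM with NRG-1 (log2 fold change -1.06, SE 0.13, adjusted *P* = 2.14e-07), and *SESN2* fell from 59.4 ± 3.33 to 32.7 ± 6.08 CPM (-0.87). *ASNS* did not pass (0.17, adjusted *P* = 0.227, or 0.0399 with the replicate block). Of 18 endoplasmic reticulum chaperone genes 6 rose and 4 fell (33.3% and 22.2%, beside 21.6% and 21.0% of all tested genes). *HERPUD1* and *XBP1*, of the unfolded protein response, fell by 0.77 and 0.59 on the log2 scale, and the chaperone gene *HSPA5* had a log2 fold change of 0.22 (adjusted *P* = 0.0213, and 0.0684 and 0.0507 without CSS batch 1 replicate 1 or NRG-1 batch 2 replicate 1). Interferon-stimulated genes had 5 higher and 7 lower of 24 (20.8% and 29.2%, beside 21.6% and 21.0% of all tested genes). In the lysosome and autophagy list 6 of 23 genes rose, a share of 26.1% that is near that of all genes, and 2 fell (8 and 5 with the replicate block). The number that fell was 1 when any library other than CSS batch 2 replicate 2 or NRG-1 batch 2 replicate 1 was left out. *TFEB*, a master regulator of lysosomal genes, was at 7.12, 6.89, 7.82, and 7.64 CPM in CSS and 22.6, 22.1, 19.2, and 16.8 CPM with NRG-1 (log2 fold change 1.45, SE 0.10, adjusted *P* = 4.72e-13).

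Cell cycle regulators moved in both directions, whereas mitotic genes that passed the test were all lower. Of 19 tested cyclins, cyclin-dependent kinases, and their inhibitors 8 rose and 6 fell. *CDKN2B*, an inhibitor of CDK4 and CDK6, was at 2.19, 2.29, 2.69, and 1.92 CPM in CSS and 18.3, 16.6, 10.9, and 9.37 CPM with NRG-1 (log2 fold change 2.58, SE 0.17, adjusted *P* = 3.07e-13). *CDKN1C*, another CDK inhibitor, rose from 1.09 ± 0.239 to 2.95 ± 0.237 CPM (1.46). *CCND1*, cyclin D1, was at 290.4, 309, 325, and 293 CPM in CSS and 452, 421, 426, and 317 CPM with NRG-1 (log2 fold change 0.41, SE 0.10, adjusted *P* = 0.00188) with 1 NRG-1 library, batch 2 replicate 2, inside the range of CSS. *CCNG2*, a cyclin linked to cell cycle exit, fell from 151 ± 9.66 to 101 ± 16.8 CPM (-0.59). Of 28 mitosis and G2/M genes 0 rose and 19 fell (median -0.33, no member past -1). *KIF20A*, a kinesin of cytokinesis, was at 37.5, 46.9, 40.3, and 39.1 CPM in CSS and 23.2, 23.6, 29.9, and 28.6 CPM with NRG-1 (log2 fold change -0.65, SE 0.07, adjusted *P* = 9.61e-09), with no overlap. *CENPF*, a kinetochore protein, was at 77.7, 124, 83.3, and 70.5 CPM in CSS and 63.2, 61.7, 64.7, and 38.9 CPM with NRG-1 (log2 fold change -0.63, SE 0.18, adjusted *P* = 0.00590), and without CSS batch 1 replicate 2, its highest library, the adjusted *P* value was 0.0509. *CCNB1*, cyclin B1, did not pass (log2 fold change -0.06, SE 0.14, adjusted *P* = 0.784). Without NRG-1 batch 2 replicate 2 the number that fell was 22 (median -0.38), in batch 1 alone 27, and in batch 2 alone 3, where 1040 of all tested genes fell. In DNA replication and G1/S genes 2 of 39 rose and 9 fell (23.1%, near the share of all genes, and 14 genes with the replicate block), with *MCM6* higher (0.46), *E2F2* lower (-0.48), and *CDC6* not past the test (-0.10). In bulk RNA, fewer cells in a phase and less RNA per cell cannot be told apart.

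The largest falls belonged to genes of quite different function. *BMF*, a proapoptotic BH3-only protein, was at 17.6, 17.2, 17.4, and 15.3 CPM in CSS and 2.78, 2.30, 3.21, and 2.54 CPM with NRG-1, with the groups far apart. *RANBP3L*, a nuclear export factor, was at 17.0, 14.7, 12.3, and 15.8 CPM in CSS and 2.27, 2.33, 2.06, and 3.38 CPM with NRG-1 (log2 fold change -2.57, SE 0.15, adjusted *P* = 5.61e-14). *SRGAP3*, a GTPase-activating protein of the Slit-Robo pathway, was at 18.2, 18.8, 16.2, and 13.6 CPM in CSS and 3.24, 3.01, 3.77, and 2.45 CPM with NRG-1 (log2 fold change -2.41, SE 0.15, adjusted *P* = 2.30e-13). *TNFSF4*, the OX40 ligand, was at 9.08, 8.11, 6.17, and 7.37 CPM in CSS and 1.75, 1.90, 1.47, and 1.68 CPM with NRG-1 (log2 fold change -2.17, SE 0.09, adjusted *P* = 3.63e-17). The rule that named these genes required groups that do not overlap. *PPM1H*, a serine/threonine phosphatase, was at 89.6, 94.1, 79.4, and 73.2 CPM in CSS and 18.6, 18.4, 23.7, and 18.6 CPM with NRG-1 (log2 fold change -2.07, SE 0.13, adjusted *P* = 3.03e-13). *TAOK3*, a kinase of the STE20 group, was at 61.3, 67.7, 66.9, and 66.3 CPM in CSS and 18.2, 16.4, 19.8, and 16.2 CPM with NRG-1 (log2 fold change -1.89, SE 0.09, adjusted *P* = 2.82e-16). *TSC22D3*, a leucine zipper protein induced by glucocorticoids and by FOXO3, was at 55.7, 60.1, 67.6, and 69.2 CPM in CSS and 12.7, 12.7, 18.3, and 18.7 CPM with NRG-1 (log2 fold change -2.03, SE 0.11, adjusted *P* = 2.74e-15). The transcription factors *CSRNP3* and *BCL11B* fell from 3.69 ± 0.905 to 0.781 ± 0.208 CPM and from 4.46 ± 0.566 to 1.22 ± 0.216 CPM (-2.21 and -1.87). Under the same rule *NUDT4P1* had a fitted log2 fold change of -4.17 (adjusted *P* = 0.0285), but its CSS libraries ran from 2.09 to 13.6 CPM and its reads may have been divided with near-identical copies. Its adjusted *P* value was between 0.0630 and 0.102 without CSS batch 2 replicate 2, NRG-1 batch 1 replicate 2, or either NRG-1 library of batch 2. The windows of the other *TSC22D3* starts did not hold the FOXO motif GTAAACA. One start is shown because its window, on the minus strand at chrX:107717063-107717312 of GRCh38.p14, holds this motif on the other strand, written TGTTTAC in capitals, 147 to 141 bases before that start.
TSC22D3: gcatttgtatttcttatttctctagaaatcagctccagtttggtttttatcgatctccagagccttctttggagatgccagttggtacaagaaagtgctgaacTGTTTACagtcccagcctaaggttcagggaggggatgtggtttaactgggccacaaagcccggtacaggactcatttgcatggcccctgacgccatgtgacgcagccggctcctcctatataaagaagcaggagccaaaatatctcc
GTAAACA was held by 3.62% of the windows of lower DEGs, by 2.08% of those of higher DEGs, and by 2.30% of all. The E-box CACGTG was held by 8.82%, 6.83%, and 8.01%.

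Genes of insulin and PI3K signaling linked to FOXO factors fell more often than they rose. Of 20 tested genes 3 rose and 11 fell (median log2 fold change -0.32, with 2 higher and 3 lower DEGs). *SESN1*, a sestrin that restrains mTORC1, was at 355, 306, 321, and 383 CPM in CSS and 85.5, 90.0, 93.8, and 121 CPM with NRG-1 (log2 fold change -1.81, SE 0.12, adjusted *P* = 3.12e-13). *FOXO3* itself was at 308, 349, 280.2, and 245 CPM in CSS and 171, 152, 148, and 105 CPM with NRG-1 (log2 fold change -1.04, SE 0.13, adjusted *P* = 1.43e-07). *PIK3IP1*, an inhibitor of PI3K, fell from 32.8 ± 1.51 to 17.2 ± 1.19 CPM (-0.93). The insulin receptor substrates moved apart, without overlap of the groups. *IRS1* was at 6.13, 6.89, 7.38, and 6.58 CPM in CSS and 20.9, 18.8, 17.6, and 14.2 CPM with NRG-1 (log2 fold change 1.41, SE 0.17, adjusted *P* = 8.68e-08). *IRS2* was at 4.03, 4.60, 3.86, and 3.50 CPM in CSS and 1.91, 1.53, 2.12, and 1.19 CPM with NRG-1 (log2 fold change -1.24, SE 0.15, adjusted *P* = 5.95e-08). *BCL6*, a transcriptional repressor, rose from 36.5 ± 1.61 to 75.7 ± 11.4 CPM (1.05), and *SESN3* fell by 0.34. In batch 1 alone 5 genes of the list were lower DEGs. The BCL2 family, which sets the threshold of apoptosis, had 4 higher and 5 lower genes of 15. These were 26.7% and 33.3%, beside 21.6% and 21.0% of all tested genes. Proapoptotic members of the family moved both ways. *BBC3* (PUMA) was at 8.17, 8.98, 10.6, and 8.62 CPM in CSS and 3.20, 3.22, 4.87, and 4.00 CPM with NRG-1 (log2 fold change -1.26, SE 0.11, adjusted *P* = 3.83e-10). *BOK* was at 29.7, 29.2, 28.8, and 26.8 CPM in CSS and 82.2, 77.9, 73.1, and 60.8 CPM with NRG-1 (log2 fold change 1.36, SE 0.08, adjusted *P* = 5.96e-14), and *HRK* rose from 0.619 ± 0.135 to 1.97 ± 0.607 CPM (1.65). The prosurvival gene *MCL1* did not pass (-0.09). Alpha-arrestins regulate nutrient uptake. *TXNIP*, which limits glucose uptake, was at 511, 547, 388, and 408 CPM in CSS and 344, 343, 294, and 300.3 CPM with NRG-1 (log2 fold change -0.52, SE 0.07, adjusted *P* = 7.01e-07), and *ARRDC2* rose from 6.44 ± 0.559 to 16.6 ± 2.89 CPM (1.36), with 3 of 5 genes of this list higher and 1 lower. *PRKAA1*, the catalytic alpha-1 subunit of the energy sensor AMPK, was at 271, 254, 310.3, and 352 CPM in CSS and 671, 688, 692, and 942 CPM with NRG-1 (log2 fold change 1.34, SE 0.11, adjusted *P* = 7.52e-11). The AMPK-related kinase gene *NUAK2* fell from 8.24 ± 1.14 to 5.11 ± 0.822 CPM (-0.69). Of the 7 genes of that list 2 rose and 2 fell (28.6% each, beside 21.6% and 21.0% of all tested genes).

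Genes of prostate function were lower more often than higher. Of 30 androgen-responsive genes 4 rose and 13 fell (median -0.11), in cells that were already kept in stripped serum. *KLK2*, a secreted kallikrein of the prostate, was at 13.2, 18.4, 13.1, and 13.7 CPM in CSS and 4.67, 6.95, 6.69, and 6.94 CPM with NRG-1 (log2 fold change -1.20, SE 0.12, adjusted *P* = 1.90e-09), and *KLK15* fell from 0.749 ± 0.165 to 0.371 ± 0.0887 CPM (-1.02). *KLK3*, the gene for prostate-specific antigen, was at 163, 209.5, 241, and 262 CPM in CSS and 112, 135, 171, and 180.0 CPM with NRG-1 (log2 fold change -0.55, SE 0.11, adjusted *P* = 1.28e-04), with overlapping groups and higher values in batch 2. *FKBP5*, which modulates steroid receptors, was at 53.6, 62.9, 65.5, and 60.3 CPM in CSS and 151, 148, 131, and 109 CPM with NRG-1 (log2 fold change 1.15, SE 0.09, adjusted *P* = 2.10e-11), and *TMPRSS2* did not pass (0.09). Enzymes that glucuronidate or reduce androgens had 5 of 16 tested genes higher and 0 lower (1 with the replicate block), and 3 higher without CSS batch 2 replicate 1, NRG-1 batch 1 replicate 2, or NRG-1 batch 2 replicate 2. *UGT2B10* was at 4.09, 3.92, 8.27, and 10.5 CPM in CSS and 6.77, 8.65, 14.6, and 24.6 CPM with NRG-1 (log2 fold change 1.01, SE 0.17, adjusted *P* = 1.64e-05, or a log2 fold change of 0.99 and thus no DEG with the replicate block), and *UGT2B7* rose from 0.222 ± 0.124 to 0.547 ± 0.347 CPM (1.26), both with overlapping groups and higher values in batch 2. These genes are close relatives of each other, so that the division of reads among them is uncertain. *UGT2B15* did not pass (-0.06). Of 13 tested neuroendocrine and neuronal activity genes 6 rose and 0 fell. *VGF*, a secreted neuropeptide precursor, was at 0.762, 0.816, 0.929, and 1.13 CPM in CSS and 23.4, 22.7, 15.3, and 13.2 CPM with NRG-1 (log2 fold change 4.35, SE 0.19, adjusted *P* = 7.77e-17). *NPTX1*, a neuronal pentraxin, rose from 0.0535 ± 0.0309 to 0.757 ± 0.109 CPM (3.81), and *ARC*, a synaptic activity gene, from 0.128 ± 0.0272 to 1.26 ± 0.139 CPM (3.27). The granin genes *SCG2* and *CHGB* were at log2 fold changes of -0.94 (adjusted *P* = 0.155) and -0.26 (0.704) and were chosen after their values were seen.

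By gene class, long noncoding RNA genes and pseudogenes held a lower share of rising genes than protein-coding genes did. Of the tested genes 16507 were matched to RefSeq, 15203 by symbol and 1304 by a synonym. Among 14883 protein-coding genes 23.3% passed as higher and 21.1% as lower, and among 1039 long noncoding RNA genes the shares were 10.6% and 22.8% (median log2 fold change -0.15). Among 554 pseudogenes they were 9.93% and 18.2%. As DEGs, 44 long noncoding RNA genes were higher and 46 lower, and 18 pseudogenes were higher and 16 lower. By symbol, 23 of 218 tested LINC genes rose and 60 fell (median -0.29), as did 41 and 111 of 416 antisense genes (median -0.16). The study's methods state that counting took the strand into account, so that reads of an antisense gene and its partner were told apart by strand. *LINC00940* was at 5.04, 4.47, 4.16, and 3.70 CPM in CSS and 1.23, 1.73, 1.40, and 0.904 CPM with NRG-1 (log2 fold change -1.73, SE 0.13, adjusted *P* = 3.93e-12), and *CALML3-AS1*, at 0.605, 0.730, 0.476, and 0.413 CPM in CSS and 0.0534, 0.0421, 0.0153, and 0.0919 CPM with NRG-1, fell by 3.41 on the log2 scale. Of 496 ZNF zinc finger genes, a family rich in repressors, 69 rose and 136 fell (median -0.05). Of 288 tested solute carrier genes 62 rose and 66 fell (21.5% and 22.9%, near the shares of all genes). The mitochondrial glutamate carrier gene *SLC25A18* was at 0.569, 0.659, 0.487, and 0.462 CPM in CSS and 4.75, 4.48, 4.32, and 4.24 CPM with NRG-1 (log2 fold change 3.04, SE 0.13, adjusted *P* = 3.63e-17).

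The libraries at 1 hour of NRG-1 served to separate changes that arose after 1 hour from those already present. Tested directly, 4.52% of genes were higher DEGs at 4 hours than at 1 hour and 2.27% lower DEGs (768 and 386 genes). Without a limit on size 19.0% and 18.5% passed. The contrast leaves out the CSS level, but the CSS libraries are part of the fit. This comparison shares the NRG-1 4 hour libraries with the one above. *ETV4* was 6.60 on the log2 scale above its 1 hour level, *SIPA1L2* 4.76, *TGFB1* 5.46, and *ITGA2* 2.72, and for each of these the test of 1 hour against CSS did not pass (0.66, -0.09, 0.52, and -0.22, adjusted *P* between 0.273 and 0.808). Integrin and laminin genes had 13 of 21 members above their 1 hour level and 1 below, and ribosome biogenesis genes 36 of 49 above and 0 below. Other genes had passed their higher level by 4 hours. *EGR1* was -4.36 and *EGR3* -6.41 on the log2 scale relative to 1 hour, although both still exceeded CSS. *DUSP5* and *HBEGF* had also declined from 1 hour (-1.88 and -0.89), whereas *DUSP6* did not differ from 1 hour past the test (0.01, SE 0.11, adjusted *P* = 0.971). *GDF15*, *MCL1*, and *CYR61* had log2 fold changes of 1.30, 1.37, and 3.15 at 1 hour and did not differ from CSS past the test at 4 hours. For 3 of the largest falls most of the change lay after 1 hour. *BMF* was -0.42 at 1 hour and a further -2.21 at 4 hours, *PPM1H* was -0.11 and then -1.97, and *TAOK3* was -0.04 and then -1.85. *TXNIP* and *NUAK2* went the other way, from 1 hour values of -1.72 and -1.78 to values closer to CSS, with 4 hours above 1 hour by 1.20 and 1.09. *CCNG2*, *CHAC1*, and *HERPUD1* were higher than CSS at 1 hour (1.12, 0.77, and 0.62) and lower than CSS at 4 hours. Of the mitosis list 14 of 28 genes were lower than at 1 hour and 0 higher.

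**Figure D5:**
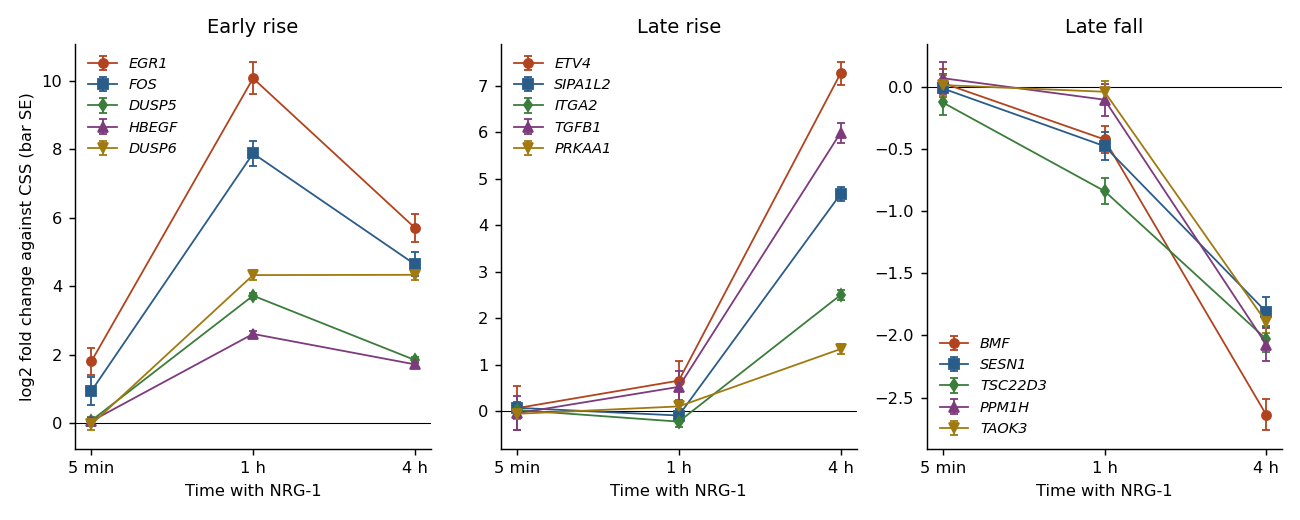
Log2 fold change against the same 4 CSS libraries at 5 minutes, 1 hour, and 4 hours of NRG-1 for 15 genes, with bars for the SE. *EGR1* and *FOS* are highest at 1 hour, *ETV4*, *SIPA1L2*, *ITGA2*, *TGFB1*, and *PRKAA1* rise between 1 and 4 hours, and the 5 genes of the right panel reach their lowest value at 4 hours.

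EGF for 4 hours is the group of the same time and dose (100 ng/mL) with another ligand, one that binds EGFR. Tested directly, 0.0235% of genes were higher DEGs with NRG-1 than with EGF and 0.147% were lower DEGs (4 and 25 genes), and 0.412% and 1.25% passed without a limit on size. The total of 29 was 15 without EGF batch 1 replicate 1, 18 without EGF batch 1 replicate 2, and 39 with the replicate block. For the next 3 genes no difference between the ligands was detected, which does not show that they act alike. *ETV4* differed by 0.01 (SE 0.14, adjusted *P* = 0.991), *ZYX* by -0.05 (SE 0.07, adjusted *P* = 0.859), and *PPM1H* by -0.04 (SE 0.13, adjusted *P* = 0.936) on the log2 scale. Of 116 tested genes of the ribosome biogenesis, mitosis, nucleotide synthesis, and heat shock lists 0 passed in either direction in edgeR. At an unadjusted *P* value below 0.05, 1 of them was higher and 19 were lower with NRG-1, 13 of the latter in ribosome biogenesis, and in DESeq2 0 were higher and 9 lower, 8 of them in ribosome biogenesis. The genes that were lower with NRG-1 included members of the immediate early response. *EGR3* was lower by 2.09 on the log2 scale (adjusted *P* = 1.16e-11), *ARC* by 1.68 (8.41e-06), *EGR2* by 1.44 (0.00112), *MMP10* by 1.10 (0.00222), and *FOS* by 1.11 (0.0194). Smaller differences in the same direction were seen for *DUSP6* (-0.91, 7.39e-06), *HBEGF* (-0.83, 6.68e-08), *HES1* (-0.81, 1.96e-05), and *ITGA2* (-0.58, 0.00112). Some lower genes were less lowered by NRG-1. *BMF* was 0.60 above its level with EGF (adjusted *P* = 0.0177), *TXNIP* 0.46 (3.16e-04), and *TNFSF4* 0.43 (0.0283).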

How the data were processed

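Gene counts of the 8 libraries compared, and of the other LNCaP libraries of the series, were taken from the deposited tables of the series. According to the study's methods and the submitters' processing notes, the authors trimmed reads with Trimmomatic 0.36, aligned them with STAR 2.7.0f, and estimated gene levels with RSEM in stranded mode, with hg19 named as genome build; the annotation is not given in the sources used here. The deposited values used are the authors' expected counts, which were rounded to whole numbers, and the authors' TPM, used for marker sums and as an alternative. Groups, batches, and replicate numbers came from the labels. The members and gene lists were chosen with earlier results of these data known.

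Genes that reached 5 counts in 3 or more of the 32 libraries were tested with edgeR 4.0.16 (R 4.3.3) by the quasi-likelihood test, with TMM scaling and terms for group and batch over all 32 libraries, and Benjamini-Hochberg adjustment over all tested genes. The DEG thresholds were 0.05 for the adjusted *P* value and 1 for the absolute log2 fold change. The fit was tested on simulated data with no batch effect, no library that stands apart, and changes only in well-counted genes. That simulation cannot show how the fit handles these features of the data. Named genes were the 10 largest rises and falls among DEGs whose average log2 CPM was 1 or more, with no overlap of groups, and the same direction in both batches, then up to 3 DEGs per list and direction (the 2 largest changes where a list had under 2 DEGs), and the lead genes of each list. Others are said to be chosen after their values were seen. A few genes that the rule would name are not reported here. Folds of genes with at most 3 counts in every CSS library are given as count ratios with 95% Poisson intervals, or as bounds against a floor of 3 counts per library.

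Deviations of NRG-1 and CSS libraries with the same batch and replicate number from their group means correlated at 0.206 to 0.405 over genes in each of the 4 pairs, above the limit of 0.1 set for pairing, so that a fit with the replicate number as block was also made. After removal of batch means the values were -0.0421 in batch 1 and 0.206 in batch 2. Alternatives were DESeq2 1.42.0, limma 3.58.1 on log2 TPM with pseudocounts of 1 and 0.1, other filters, each batch alone, no batch term, and each library left out. Promoter windows came from RefSeq tables on GRCh38.p14, not the build of the files.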

Additional observations from a re-analysis of the deposited data

Results flagged for a closer look

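For 10 of 354 sets of 4 libraries (each gene in CSS and in NRG-1) 1 library lay far from the others by Dixon's criterion, where about 1 in 20 sets (17.7) does so by chance. Of these, 4 were in NRG-1 batch 2 replicate 2, the library that stood apart in its length profile. In that library *AMD1* was at 1884 CPM, where the others were between 1256 and 1348 CPM. *CENPF* was at 38.9 CPM, where the others were between 61.7 and 64.7 CPM. *PPAT* was at 133 CPM, where the others were between 113 and 116 CPM. *PRKAA1* was at 942 CPM, where the others were between 671 and 692 CPM. *KLK2* was at 18.4 CPM in CSS batch 1 replicate 2, where the others were between 13.1 and 13.7 CPM. *KLK2* was at 4.67 CPM in NRG-1 batch 1 replicate 1, where the others were between 6.69 and 6.96 CPM. *NOP56* was at 271 CPM in NRG-1 batch 2 replicate 1, where the others were between 301 and 305 CPM. *PPM1H* was at 23.7 CPM in NRG-1 batch 2 replicate 1, where the others were between 18.4 and 18.6 CPM. *SESN2* was at 64.4 CPM in CSS batch 2 replicate 1, where the others were between 57.5 and 58.0 CPM. *TIMP1* was at 0.0364 CPM in CSS batch 2 replicate 2, where the others were 0.

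Against EGF at the same time, 32 of the named genes differed by the direct test (adjusted *P* below 0.05, edgeR). Higher with NRG-1, by log2 difference, were *BMF* (0.60), *KLHL24* (0.87), *OPRK1* (0.50), *TNFSF4* (0.43), and *TXNIP* (0.46). Lower by more than 1 were *ARC* (-1.68), *EGR1* (-3.10), *EGR2* (-1.44), *EGR3* (-2.09), *EGR4* (-2.85), *FOS* (-1.11), *MMP1* (-1.78), and *MMP10* (-1.10). Lower by less were *DUSP6* (-0.91), *CXCR4* (-0.90), *MMP13* (-0.89), *HBEGF* (-0.83), *HES1* (-0.81), *FOSL1* (-0.78), *DUSP5* (-0.66), *CDKN2B* (-0.59), *ITGA2* (-0.58), and *IGF2BP2* (-0.57). Still smaller differences in this direction were found for *BCL6* (-0.48), *ID2* (-0.41), *HMGA1* (-0.38), *TMPRSS2* (-0.37), *TPM4* (-0.37), *MCL1* (-0.37), *TNFRSF12A* (-0.36), *PFKP* (-0.35), and *AHR* (-0.32). The adjusted *P* values lay between 1.16e-11 and 0.0396.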

How the results depend on the processing

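For the comparison with CSS, the number of DEGs (1260, of which 828 were higher and 432 lower) stayed within 1.5 times its value with DESeq2, DESeq2 size factors, no filter, no batch term, the 8 libraries alone, or batch 1 alone, and lay between 1181 and 1285 when 1 library was left out (781 to 852 higher, 391 to 461 lower). It was 653 (437 higher, 216 lower) when 10 counts were required in each of the 8 libraries, which removes genes near 0 in CSS. In batch 2 alone it was 836 (230 lower). Limma gave 765 (499 and 266) on log2(TPM + 0.1) and 300 (226 and 74) on log2(TPM + 1), where the larger pseudocount shrinks the changes of low genes. A test against a log2 fold change of 1 gave 576 (473 and 103), and no limit on the fold change gave 7245 (3675 and 3570). Against 1 hour, leaving out 1 library gave 1051 to 1185 DEGs (711 to 792 higher, 340 to 399 lower) and batch 2 alone gave 732 (218 lower). Against EGF, batch 1 alone gave 49 DEGs (46 lower), batch 2 alone 4 (0 higher, 4 lower), and no batch term 12 (0 and 12), and leaving out 1 library gave 15 to 38 (2 to 6 higher, 13 to 34 lower), with the extremes of 2 higher without EGF batch 1 replicate 1 or NRG-1 batch 2 replicate 1. The cause of these moves was not tested. With the replicate number as a block in place of the batch, 1273 genes were DEGs against CSS, 1173 against 1 hour, and 39 against EGF (7 higher), and apart from the values given beside the results it changed no other call of a named gene. Over all pairs of a named gene and an alternative, 3265 of 3333 stayed on the same side of the threshold, 59 no longer passed, 9 newly passed, and no gene that passed changed sign. The sign differed in 19 pairs of 9 genes, in which neither value passed the test.

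The data are limited to 4 libraries a group, of which 1 stood apart, in 2 batches whose meaning the labels do not give, and to 1 cell line and 1 dose. Genes below 1 CPM rest on few counts, so that their folds carry wide counting intervals. Lists were compiled from general knowledge with earlier results of these data known, so that their members were not chosen independently of the data. They are described by counts, without a test of the list.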

Other observations

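Further genes at higher levels were chosen after their values were seen. Among the rises, *TNFRSF12A*, the receptor of TWEAK, went from 18.2 ± 2.65 to 190.3 ± 27.4 CPM (SD, n = 4; log2 fold change 3.38). *TNFRSF21*, a death receptor, went from 34.0 ± 2.11 to 317 ± 52.6 CPM (3.21). Of the cytoskeletal list described above, *FLNA*, filamin A, rose from 341 ± 70.9 to 1084 ± 287 CPM (1.67) and *TPM4*, a tropomyosin, from 138 ± 10.5 to 479 ± 21.6 CPM (1.79), and outside it *PALLD*, palladin, rose from 43.8 ± 1.24 to 186 ± 7.70 CPM (2.09). *KRT8*, the keratin of luminal cells, rose from 499 ± 10.7 to 1351 ± 210.4 CPM (1.43). *AHR*, the receptor of aryl hydrocarbons, rose from 12.3 ± 0.663 to 35.6 ± 2.80 CPM (1.54), *HMGA1*, an architectural chromatin protein, from 153 ± 9.76 to 369 ± 52.5 CPM (1.27), and *ATP2B1*, a calcium pump of the plasma membrane, from 285 ± 17.6 to 948 ± 80.2 CPM (1.73).

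Among the falls, *DEPTOR*, an inhibitor of mTOR, went from 21.4 ± 1.00 to 6.12 ± 0.736 CPM (-1.81) and *KLHL24*, a substrate adaptor of a ubiquitin ligase, from 45.8 ± 10.9 to 15.1 ± 6.69 CPM (-1.66). *OPRK1*, the kappa opioid receptor, went from 236 ± 96.5 to 80.0 ± 28.1 CPM (-1.53), *GREB1*, a gene that steroid receptors regulate, from 20.6 ± 5.48 to 7.94 ± 2.39 CPM (-1.39), and *FOXN3*, a forkhead repressor, from 87.3 ± 6.03 to 43.2 ± 5.73 CPM (-1.02). Beside the pseudogene *NUDT4P1*, its parent *NUDT4* was at 92.9, 87.8, 83.6, and 89.1 CPM in CSS and 259.7, 265, 174, and 205 CPM with NRG-1 (1.35), and the copy *NUDT4P2* went from 122 ± 9.20 to 303 ± 63.3 CPM (1.31). The 3 near-identical genes thus moved in different directions in the same libraries, and how the authors' counting divided their reads was not tested.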
